A study of Mus musculus with 4 samples.

Results

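Regions of RNA polymerase II (Pol II) occupancy that were called in heart and in lung, and in neither kidney nor liver, are described here. The assay was chromatin immunoprecipitation followed by sequencing, applied to 4 groups, heart, lung, kidney and liver of C57BL/6 mice, with no treatment, allele or age named in the labels. The organs of a pair of mice were flash frozen, crosslinked and sheared by ultrasound, and precipitated with the antibody 4H8, directed against the Pol II C-terminal domain. The labels do not say whether a list pools both mice. There is 1 list of called regions per organ, so n = 1 in each group, values carry no replicate error, and differences between organs were not tested. On chromosomes 1 to 19 and X, regions of the 4 lists sharing at least 1 bp were merged, giving 152542 linked regions. Of these, 5899 (3.87%) held heart and lung regions, none from kidney or liver, and no joined region of 10000 bp or more. The regions were thus chosen by presence and absence in the 4 lists and by region length, and tag counts decide what is called, so those values are given as a description. The rule did not use the genes they lie in or the sequence under them. However, the gene lists below and the choice of these regions were made with earlier results of these data known. Shares of the gene lists are therefore a description too.

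Pol II transcribes protein-coding genes and many non-coding RNAs. Chromatin immunoprecipitation recovers it paused near starts, moving through gene bodies and loaded at enhancers, so a called region is not by itself a promoter. Heart and lung are both rich in capillaries and stromal fibroblasts, and their early development is linked through progenitors of the cardiopulmonary mesoderm. Endothelial cells line vessels and are known by junction proteins such as VE-cadherin and claudin 5, by receptors for vascular endothelial growth factor and angiopoietin, and by transcription factors of the ETS family. In bulk organs, fewer cells of a type and less polymerase per cell cannot be told apart.

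The called lists carried the marks of their labelled organs. In heart, 28 of 34 cardiomyocyte genes were covered over 50% or more of the span, against 16.3% of all protein-coding genes. Of 25 lung epithelial genes, 20 reached this level in lung, against 15.3% of all genes. Heart had 9880184 tags in all, lung 13296938, kidney 16589890.5 and liver 20058183, so the organs that define these regions were the shallowest and the organs that must lack a region were the deepest. List size did not follow depth, with 81887 called regions in heart, 101051 in lung, 88200 in kidney and 61956, the fewest, in liver. The part of depth in the result was not tested, and counts with lists of equal size are given below.

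The promoters below lie in such regions. They are shown because Cldn5, Clec14a and Myct1 are endothelial genes with no kidney or liver region in their span, and because Gask1b and Timp2 stand under regions with some of the highest tag counts in both organs. Each window runs 250 bases before to 50 after the start, 5′ to 3′ on the gene's strand, from RefSeq on GRCm38.p6, with matches to the 8 motifs named further on in capitals. No capitals mean no match of those motifs in this window.
Cldn5, chr16:18776597-18776896, plus strand: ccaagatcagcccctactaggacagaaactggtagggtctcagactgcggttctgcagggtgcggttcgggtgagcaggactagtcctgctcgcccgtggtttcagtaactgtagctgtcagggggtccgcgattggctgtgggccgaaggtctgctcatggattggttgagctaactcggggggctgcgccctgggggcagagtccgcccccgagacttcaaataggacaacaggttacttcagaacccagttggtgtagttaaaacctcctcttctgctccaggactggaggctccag
Clec14a, chr12:58269209-58269508, minus strand: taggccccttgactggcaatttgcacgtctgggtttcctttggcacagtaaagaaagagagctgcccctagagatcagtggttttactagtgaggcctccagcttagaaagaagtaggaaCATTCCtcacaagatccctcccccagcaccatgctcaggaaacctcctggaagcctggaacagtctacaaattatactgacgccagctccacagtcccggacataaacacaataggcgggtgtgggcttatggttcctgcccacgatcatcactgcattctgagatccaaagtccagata
Myct1, chr10:5593478-5593777, plus strand: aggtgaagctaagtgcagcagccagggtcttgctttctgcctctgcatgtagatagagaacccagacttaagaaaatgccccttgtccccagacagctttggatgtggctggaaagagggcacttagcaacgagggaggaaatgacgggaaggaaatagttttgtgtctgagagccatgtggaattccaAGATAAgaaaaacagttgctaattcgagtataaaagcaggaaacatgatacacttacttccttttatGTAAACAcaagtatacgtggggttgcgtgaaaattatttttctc
Gask1b, chr3:79885680-79885979, plus strand: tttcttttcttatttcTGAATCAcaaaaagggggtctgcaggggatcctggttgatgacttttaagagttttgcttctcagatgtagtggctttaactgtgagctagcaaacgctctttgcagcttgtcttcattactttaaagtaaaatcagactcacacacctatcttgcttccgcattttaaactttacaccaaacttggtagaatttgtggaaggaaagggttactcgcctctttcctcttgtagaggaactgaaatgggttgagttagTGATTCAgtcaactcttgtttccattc
Timp2, chr11:118355362-118355661, minus strand: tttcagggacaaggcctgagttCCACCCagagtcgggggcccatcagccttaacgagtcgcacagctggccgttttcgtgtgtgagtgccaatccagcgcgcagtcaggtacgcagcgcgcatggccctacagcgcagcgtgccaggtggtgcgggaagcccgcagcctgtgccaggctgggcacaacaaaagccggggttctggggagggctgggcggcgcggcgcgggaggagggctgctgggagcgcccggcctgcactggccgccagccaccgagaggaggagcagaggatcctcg
The 5 windows differ in base composition. Those of Gask1b and Myct1 hold 3 and 5 CpG dinucleotides at 39.7% and 43.3% G and C, whereas that of Timp2 holds 25 CpG at 68.7%. The Cldn5 window holds 12 CpG at 58.3%, and the Clec14a window 5 CpG at 50.3%.

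Most of the regions were small, and most rested on a single call in each organ. Of the 5899, 5272 (89.4%) joined 1 heart and 1 lung region, and none joined more than 4 heart or more than 5 lung regions. The median width was 1419 bp, and a median of 33.7% of the width lay in both organs' regions. The shared stretch was as short as 1 bp, under 10 bp in 30 regions and under 50 bp in 216. The regions took up 6197 regions of the heart list (7.57%) and 6373 of the lung list (6.31%). The length limit left out 99 regions held by heart and lung only. Just inside it stood Rgs3 and Cav1 with a longest joined region of 9929 and 9923 bp, and just outside it Hdac4 with 10068 bp and Agtpbp1 and Afdn with 10081 bp each. Among those left out were regions over Aplnr, the apelin receptor, with 386.1 tags in heart and 112.02 in lung, over Tmem100 with 200.5 in heart and 804.7 in lung, and over Cd36, a fatty acid transporter, with 1424.6 in heart and 215.9 in lung.

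Tag counts, scaled by the authors to 10000000 tags in each list, ran between 6.58 and 449 in heart with a median of 16.7, and between 6.39 and 212 in lung with a median of 13.2. The median of all heart regions was 15.7 and that of all lung regions 12.8, so the shared regions sat near the middle of both lists. Per kb of called region the medians were 20.6 in heart and 17.3 in lung, beside 20.9 and 17.6 over all regions of those lists. The whole lists thus differed in the same direction, and the offset is not particular to the shared regions. In 4703 of the shared regions (79.7%) the higher density was in heart. More than a 2-fold difference in density was seen in 70 regions, all higher in heart. Tag counts in heart and lung were weakly related across the 5899 regions (Spearman correlation 0.21, and 0.05 per kb), while within each organ they followed the called length (0.95 in heart, 0.96 in lung). At least 20 tags in both organs were reached by 1139 regions and at least 100 in both by 37.

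**Figure D1:**
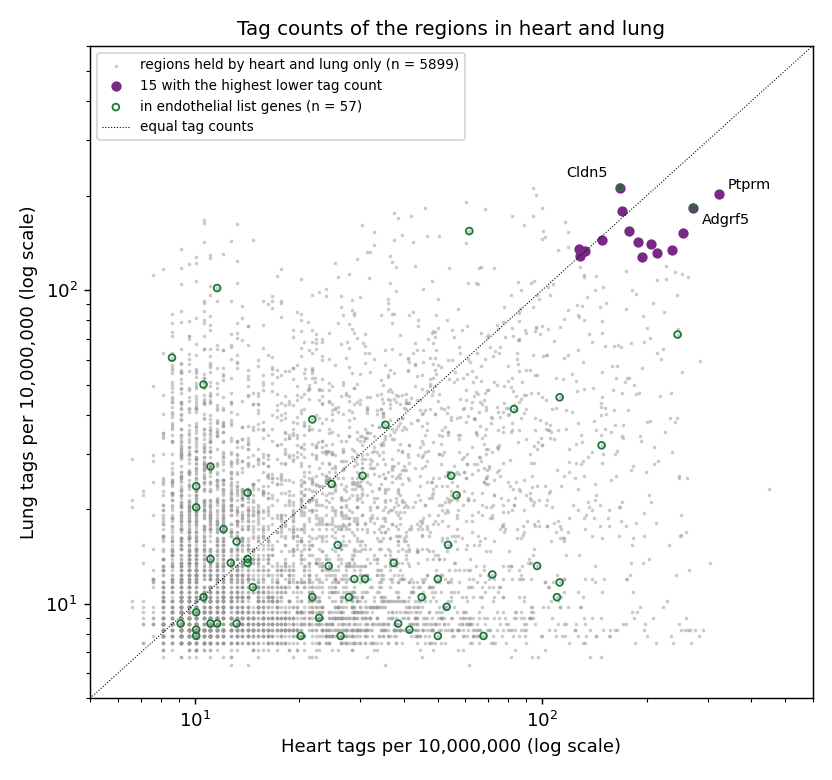
Tag counts of the 5899 regions in heart (horizontal) and lung (vertical), each per 10000000 tags on a log scale, with 1 point per region, the 15 with the highest lower count in purple, and the 57 in endothelial genes circled in green. Most points crowd below 20 tags in an organ, and the Ptprm, Adgrf5 and Cldn5 regions stand at the upper right.

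The region with the highest lower count lay inside Ptprm, a receptor-type tyrosine phosphatase that binds itself on neighbouring cells (chr17:67301268-67316980), with 322.9 tags in heart and 202.3 in lung. Next came a region inside Adgrf5, an adhesion G protein-coupled receptor of lung (chr17:43429833-43442805), with 271.7 in heart and 183.1 in lung. After these came a region over the start of Impdh1, an enzyme of guanine nucleotide synthesis (chr6:29208080-29217435), with 169.5 in heart and 178.6 in lung. The next one covered all of Cldn5, the tight junction protein claudin 5, and reached Cdc45 (chr16:18773203-18782966), with 167.5 in heart and 212.1 in lung. In the Cldn5 and Impdh1 regions lung was the higher of the organs, and in those of Ptprm and Adgrf5 heart was.

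Of the 15 leading regions, 5 overlapped no protein-coding gene. On chromosome 2, a region with 178.1 tags in heart and 153.8 in lung lay 45.8 kb from Sstr4 and 54.9 kb from Thbd, which encodes thrombomodulin, the thrombin receptor of endothelium. A second, with 194.3 in heart and 127.88 in lung, lay 60 kb from Cd93, an endothelial and myeloid lectin-like receptor. Another lay between Arhgap31 and B4galt4 on chromosome 16, 9.24 and 9.96 kb away, with 255.1 in heart and 151.9 in lung. The others lay 163 kb from Qk, with 236.3 in heart and 134.6 in lung, and 38.5 kb from Zcchc2, with 127.5 in heart and 135.4 in lung. Their nearest kidney or liver region was 6467 bp (near Cd93) to 56951 bp (near Sstr4) away. The remaining leading regions lay in Mecom, Tjp1, Gask1b (a pair of them), Serpinb1c and Timp2. Tjp1 encodes the tight junction scaffold ZO-1, and its region had 188.3 tags in heart and 142.1 in lung. Timp2 encodes an inhibitor of matrix metalloproteinases, and its region had 128.5 in heart and 128.6 in lung.

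Ranked instead by the caller's score, read as a percentile within each list, the 5 leading regions were of other genes. A region reaching the end of Col6a1, a collagen VI chain, with its heart part only, stood at the 99.5th percentile in heart and the 99.2nd in lung, with 57.7 and 33.5 tags. The others lay 28.2 kb from Zc3hc1, 16.1 kb from Hlx, a homeobox gene, 15.1 kb from Ets1, an endothelial and lymphoid transcription factor, and inside Prpf3. The score in heart and the score in lung had a Spearman correlation of 0.02 across all 5899 regions.

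Gene spans held 3966 of the regions, 67.2% (exact 95% interval 66.0 to 68.4%, counting error only), against 71.2% of the 4584 regions held by kidney and liver only, 71.4% of the 3549 held by heart and kidney only, and 70.8% of the 5276 held by lung and kidney only. Regions held by all 4 organs, 7481 under the same 10000 bp limit, lay in genes in 87.0% of cases. Their median width was 5266 bp, against 1419 bp for heart and lung only. Wider regions can meet more spans and promoter windows, so shares of the 2 sets are not like for like. Inside genes the regions were spread evenly, with a median position at 49.6% of the way along the gene and 18.8 to 21.4% in each of 5 equal parts. Regions held by all 4 organs had 44.8% in the first of these parts. A promoter window of the RefSeq table was touched by 150 of 5665 regions off chromosome 18 (2.65%, exact 95% interval 2.25 to 3.1%). This share was 4.92% in kidney and liver only, 2.61% in heart and kidney only, 2.88% in lung and kidney only, and 37.5% among regions held by all 4 organs. Regions on the X chromosome numbered 55, or 2.42% of its linked regions, the lowest share of any chromosome, and chromosome 12 had the highest, 4.99%.

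Kidney and liver regions were often near. The median distance to the nearest one was 3655 bp, 23.0% of regions had one within 1000 bp and 56.5% within 5000 bp, and 7.46% had none within 50000 bp. In kidney and liver only regions the median distance to a heart or lung region was 3106 bp. It was 1998 bp between heart and kidney only regions and a lung or liver region, and 2367 bp between lung and kidney only regions and a heart or liver region. At the edge of the rule, 2 regions touched a kidney or liver region without overlapping it, and 24 lay within 10 bp of one.

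**Figure D2:**
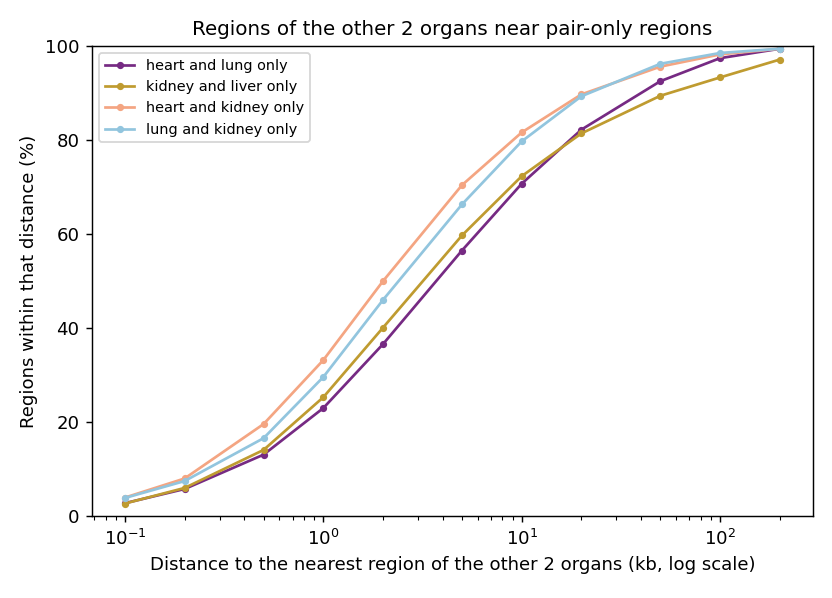
Percent of regions (vertical) with a region of the 2 organs outside the pair within the distance on the horizontal axis (kb, log scale), for heart and lung only, kidney and liver only, heart and kidney only, and lung and kidney only. The heart and lung curve is the lowest of the 4 at 1 kb (23.0%) and at 10 kb (70.7%).

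At least 1 region lay in the span of 1988 of 21627 protein-coding genes (9.19%), and 2 or more in 774 (3.58%). Long genes held them more often, at 27.6% of genes over 100 kb, 15.4% of those of 30 to 100 kb, 6.67% of 10 to 30 kb and 1.46% of genes under 10 kb. For the other organ pairs the share ran between 4.6% and 9.86% of genes. It was 9.24% for kidney and liver only, 7.42% for heart and kidney only and 9.86% for lung and kidney only. For heart and liver only it was 4.6%, and for lung and liver only 7.13%. No kidney or liver region of any kind lay in the span of 218 of the 1988 genes (11%).

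Several genes held the regions in rows. Ptprm led with 31 in a span of 688 kb, where 129 linked regions in all were called, 65 of them in heart only, 24 in lung only and 8 with a kidney or liver region. Samd4, an RNA-binding regulator of translation, held 23 in 223 kb, and its span was covered over 56.3% by heart regions, 20.7% by lung regions, 0.874% by kidney and 1.56% by liver regions. Nav2, a cytoskeleton-associated gene of neurite growth, held 22, with 16.0% of the span covered in heart, 23.2% in lung, 11.7% in kidney and 12.7% in liver. Plcb4, a phospholipase C that acts downstream of G protein-coupled receptors, held 21, with 45.8% covered in heart, 26.8% in lung, 3.68% in kidney and none in liver. Ptprm, Samd4 and Plcb4 were thus nearly bare in kidney and liver, and Nav2 was not.

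The next genes by count were Rad51b with 16, Limch1, Pip5k1b and Arhgap26 with 15 each, Elmo1 and Gab2 with 14, Grk5, Rapgef5 and Prkce with 13, and Tcf4 and Cmss1 with 12. Their products include the lipid kinase Pip5k1b, the GTPase-activating protein Arhgap26, the Rac-activating partner Elmo1, the docking adaptor Gab2, the receptor kinase Grk5, the Rap activator Rapgef5 and protein kinase C epsilon (Prkce). Elmo1 was sparsely covered in heart (5.68%) and lung (6.35%) and had no region in kidney and 1 in liver. Limch1 had 60.2% of its span covered in heart, 51.3% in lung, 19.1% in kidney and none in liver. Rad51b differed from these, since its span was covered over 23.3% in heart, 58.5% in lung, 25.5% in kidney and 28.6% in liver. Of the 12 regions in Cmss1, 7 also lay in Filip1l, a gene within its span, and the signal cannot be given to either.

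Endothelial genes held the regions often. Of 40 endothelial genes, 20 (50.0%) had at least 1 in the span, beside 9.19% of all genes, and 13 had 2 or more, beside 3.58%. No endothelial gene held a kidney and liver only region (9.24% of all genes did), 7 held a heart and kidney only region (7.42%) and 2 a lung and kidney only region (9.86%). By size, 2 of 7 endothelial genes under 10 kb, 4 of 16 of 10 to 30 kb, 6 of 9 of 30 to 100 kb and 8 of 8 over 100 kb held one. Of all genes, the shares in those size classes were 1.46%, 6.67%, 15.4% and 27.6%. All 40 had some heart region and some lung region, 36 had a kidney region and 28 a liver region, so most of these genes were also called somewhere in kidney and liver. With the 4 lists cut to the same number of regions, 18 endothelial genes (by score) or 16 (by tag count) held a region, beside 6.63% and 6.33% of all genes. With at least 20 tags in both heart and lung, 9 did, beside 2.39%.

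**Figure D3:**
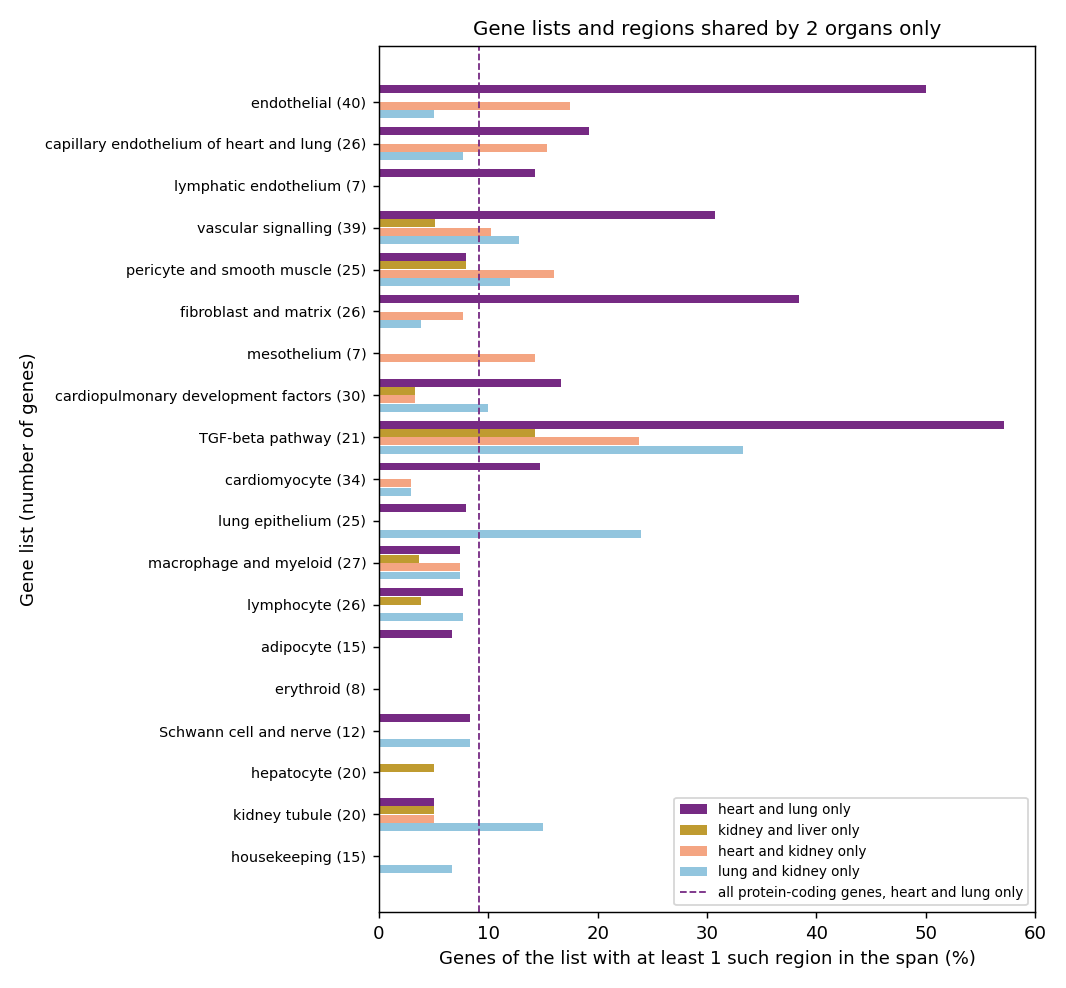
Percent of the genes of each list (horizontal) whose span holds at least 1 region of the kind, for heart and lung only, kidney and liver only, heart and kidney only, and lung and kidney only, with the number of genes in brackets and the 9.19% of all protein-coding genes for heart and lung only as a dashed line. The heart and lung bar reaches 50.0% in the endothelial list and 57.1% in the TGF-beta list, and no hepatocyte, erythroid, mesothelial or housekeeping gene has one. All hepatocyte and housekeeping genes have liver regions in the span, and why these lists have none of the shared regions was not tested.

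Among vascular receptors, Flt1, receptor 1 for vascular endothelial growth factor, and Tek, the angiopoietin receptor TIE2, held 7 and 6 regions. Flt1 was covered over 73.6% in heart, 24.1% in lung, 9.86% in kidney and 0.607% in liver. Its 7 regions had 10.1 to 112.3 tags in heart and 8.27 to 13.9 in lung. Tek was covered over 16.6% in heart, 27.4% in lung, 1.47% in kidney and not at all in liver, and its regions had 9.11 to 25.8 tags in heart and 8.65 to 24.1 in lung. Adgrf5 and Calcrl, the receptor for adrenomedullin, held 4 each. Adgrf5 was covered over 93.2% in heart, 85.7% in lung, 13.8% in kidney and 6.11% in liver, whereas Calcrl was covered over 30% in heart, 84.5% in lung, 6.73% in kidney and 16.6% in liver. Heart thus had the greater cover in Flt1 and Adgrf5, and lung in Tek and Calcrl.

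Of the junction genes, Cdh5, which encodes VE-cadherin, held 6 regions in 42.9 kb. It was covered over 38.7% in heart and 32.7% in lung, and no kidney or liver region lay in its span. Its regions had 10.6 to 50.1 tags in heart and 11.3 to 50.0 in lung. All 6 stood in the body of the gene, while the longer heart region at the lower-coordinate end, reaching 10.138 kb into the gene, was not among them. That region was longer than the 10000 bp limit, and it also overlapped a kidney region of 500 bp outside the span. Cldn5 was covered over 100% in heart and in lung and had no region in kidney or liver, and the nearest kidney or liver region was 23191 bp from its own. Pecam1, the adhesion molecule CD31, held 1 region and was covered over 95.7% in heart, 95.7% in lung, 22.3% in kidney and 37.3% in liver. Clec14a, a C-type lectin of endothelium, was covered over 49.4% in heart and 100% in lung. Its region had 61.7 tags in heart and 154.2 in lung, and the nearest kidney or liver region was 339960 bp away. Myct1 was covered over 28.5% in heart and 16.5% in lung with none in kidney or liver. Cldn5, Clec14a and Myct1, whose promoters are printed above, and Cdh5 were the only 4 of the 20 genes without a kidney or liver region in the span.

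**Figure D4:**
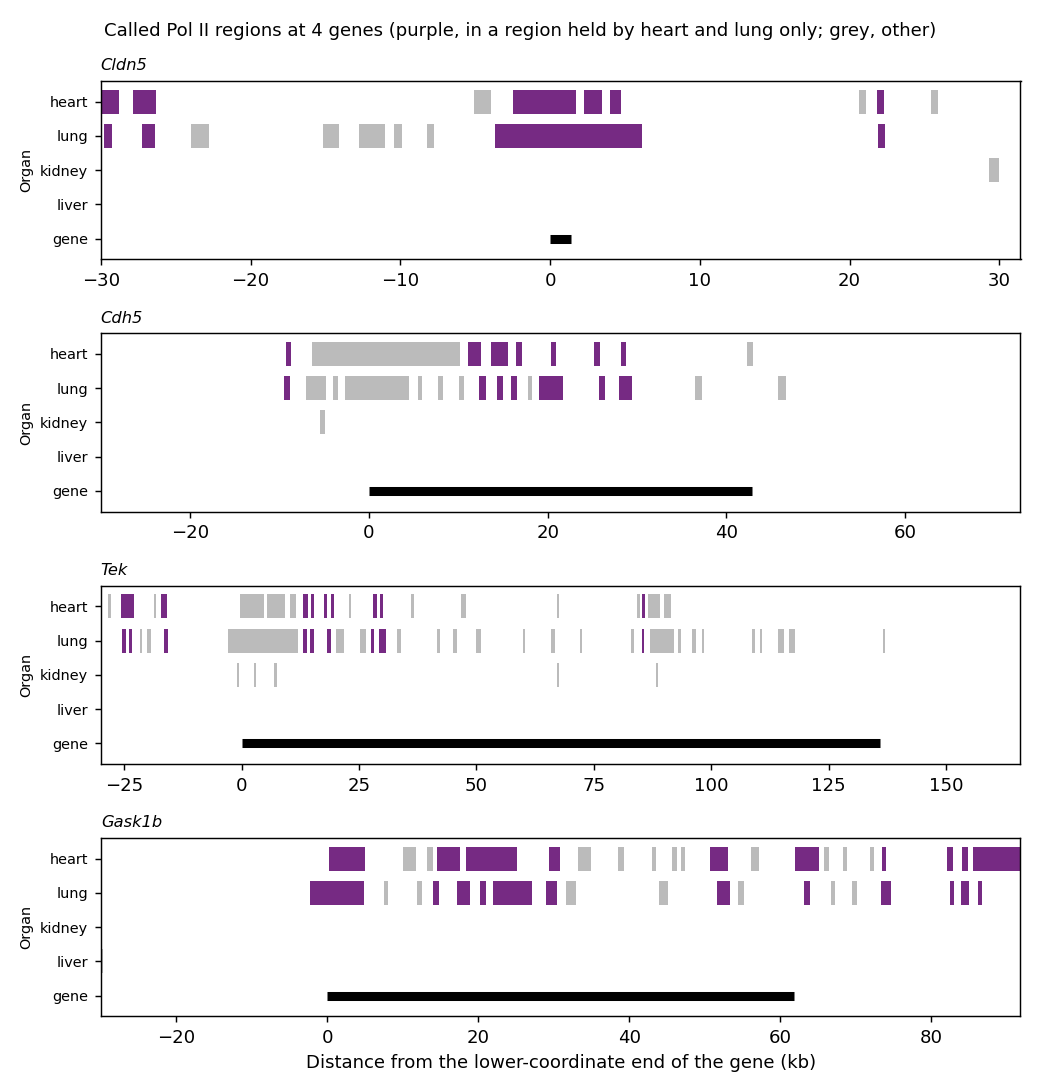
Called regions of heart, lung, kidney and liver (rows) at Cldn5, Cdh5, Tek and Gask1b, with the gene as a black bar and the distance from its lower-coordinate end on the horizontal axis (kb). Purple regions belong to regions held by heart and lung only and grey ones do not. No kidney or liver region falls in the Cldn5, Cdh5 or Gask1b span, and the kidney regions of Tek are single short calls.

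The ETS factors of endothelium Erg, Ets1 and Fli1 held 3 regions each. Erg was covered over 25% in heart, 15.3% in lung, 2.35% in kidney and 1.02% in liver. Ets1 was covered over 85.2% in heart, 58.2% in lung, 21.5% in kidney and 11.1% in liver. Fli1 was covered over 59.7% in heart, 17.8% in lung, 7.59% in kidney and 1.91% in liver. In all 3, heart had the greatest cover and liver the least. Shank3, a scaffold protein best known from synapses, held 6, with 75.8% covered in heart, 22.2% in lung, 4.16% in kidney and 0.983% in liver. Nos3, the endothelial nitric oxide synthase, held 1 and Vwf, von Willebrand factor, 2.

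The 20 endothelial genes without such a region all had a kidney or liver region in the span, and none of them lacked heart or lung regions. Kdr, receptor 2 for vascular endothelial growth factor, was covered over 100% in heart, 65.4% in lung, 3.03% in kidney and 11.5% in liver, in 1 linked region that a kidney or liver call joined. Sox18 was covered over 100% in both heart and lung, over 3.44% in kidney and not in liver. Thbd and Cd93, which are in no list, were each covered over 100% in heart and in lung, with 24.3% and 27.8% in kidney and none in liver. A gene with long or continuous cover in heart can thus lack such a region, either through the length limit, which the 46.2 kb span of Kdr under 1 heart region exceeds, or through a kidney or liver call that joins it.

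**Figure D5:**
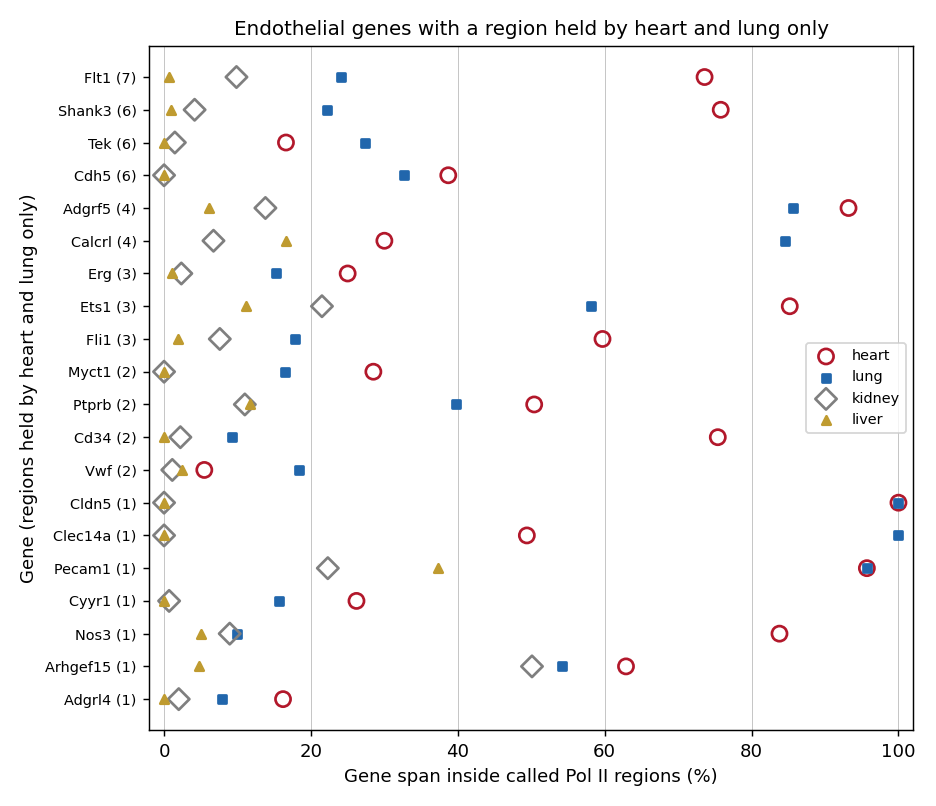
Percent of the span inside called regions (horizontal) in heart, lung, kidney and liver for the 20 endothelial genes with a region held by heart and lung only, with the number of such regions in brackets. Heart or lung has the highest value in each gene, and Arhgef15 comes closest to an exception, with 62.9% in heart, 54.2% in lung, 50.1% in kidney and 4.69% in liver.

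The capillary list names 26 genes of capillary endothelium of heart and lung, the organs that define the regions. Of these, 5 (19.2%) held a region, beside 9.19% of all genes. A heart and kidney only region lay in 4 (7.42% of all genes) and a kidney and liver only region in none (9.24%). The 5 were 2 of 6 genes of 30 to 100 kb and 3 of 6 over 100 kb. In those classes 15.4% and 27.6% of all genes held one. None of the 10 under 10 kb or the 4 of 10 to 30 kb did. Kitl, the ligand of the KIT receptor, held 9 and was covered over 55.5% in heart, 59.6% in lung, 7.68% in kidney and not in liver. The Kitl region with the most tags had 96.7 in heart and 96.3 in lung. Sema6a, a transmembrane semaphorin, held 7, and Cav1 (caveolin 1), Bmp6 and Nrp1 (neuropilin 1) 1 each. Aplnr and Cd36 held only regions above the length limit. Of 39 vascular signalling genes, 12 (30.8%) had one, beside 9.19% of all genes. The counts were 2 for kidney and liver only (9.24%), 4 for heart and kidney only (7.42%) and 5 for lung and kidney only (9.86%). Split by size, none of 10 under 10 kb, 3 of 11 of 10 to 30 kb, 4 of 10 of 30 to 100 kb and 5 of 8 over 100 kb held one. Notch4, the endothelial Notch receptor, held 5 and was covered over 76.8% in heart, 57.5% in lung, 16.3% in kidney and 5.84% in liver. Bmpr2, the bone morphogenetic protein receptor mutated in heritable pulmonary hypertension in humans, held 3, with 20.9% covered in heart, 86.6% in lung, 15.6% in kidney and 10% in liver. The Notch ligands Jag2 and Jag1 and the ephrin Efnb2 held 2 each. Of 7 lymphatic genes, 1 (14.3%) had a region (Flt4), beside 9.19% of all genes.

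Counted as genes with at least 1 region, the TGF-beta pathway list had the highest share of any list. Of its 21 genes, 12 (57.1%) held a region, beside 9.19% of all genes. Only 4 of the 21 held 2 or more, whereas 13 of 40 endothelial genes did. With at least 20 tags in both organs, 4 of the 21 and 9 of the 40 held one. The 9 TGF-beta genes without a region, Tgfb1, Tgfbr1 and Smad2 among them, all had a kidney or liver region in the span. Split by size, 2 of 4 under 10 kb, 2 of 6 of 10 to 30 kb, 5 of 8 of 30 to 100 kb and 3 of 3 over 100 kb did. In these classes 1.46%, 6.67%, 15.4% and 27.6% of all genes held one. Of the same 21, 3 held a region of kidney and liver only (9.24% of all genes did), 5 of heart and kidney only (7.42%), 7 of lung and kidney only (9.86%), 1 of heart and liver only (4.6%) and 1 of lung and liver only (7.13%). Among ligands and their binding proteins, Ltbp2 held 4, Ltbp4 2, and Tgfb3, Tgfb2 and Ltbp1 1 each. Among receptors, Tgfbr2 held 4, Tgfbr3 3 and the decoy receptor gene Bambi 1. Tgfbr2, the type II receptor, was covered over 15% in heart, 56.4% in lung, 17.9% in kidney and 3.05% in liver. Tgfb3 was covered over 6.61% in heart and 18.9% in lung with none in kidney or liver, and its region had 35.9 tags in heart and 86.9 in lung. Of the intracellular members and targets, Smad3, Smad4 and Tgfb1i1 held 1 each.

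Fibroblast and matrix genes held the regions in 10 of 26 cases (38.5%), beside 9.19% of all genes. The counts were none for kidney and liver only (9.24%), 2 for heart and kidney only (7.42%) and 1 for lung and kidney only (9.86%). Split by size, 1 of 4 under 10 kb, 3 of 8 of 10 to 30 kb, 5 of 13 of 30 to 100 kb and 1 of 1 over 100 kb held one. Fbn1, the microfibril protein fibrillin 1, held 9 and was covered over 25% in heart, 8.39% in lung, 2.02% in kidney and not in liver. Its regions had 12.7 to 204.4 tags in heart and 7.52 to 38.3 in lung. Eln, the elastin gene, held 6 and was covered over 49.7% in heart, 47.3% in lung, 1.12% in kidney and 8.62% in liver. Its regions had 17.7 to 62.8 tags in heart and 9.4 to 59.8 in lung. Gsn, the actin-severing protein gelsolin, and Ltbp4 held 2 each, and Dpt, Col3a1, Fbln1, Pi16, Loxl1 and Osr1 1 each. The lung part of the Osr1 region lay outside the gene, which holds no lung call. Of the 16 genes of the list without a shared region, 10 lacked a call in heart or in lung. Among these, Dcn, Lum, Col1a2, Fbln2, Mfap5 and Lox had heart regions and no lung region, and Postn had neither. Over the 26 genes the median cover was 19.8% in heart and 2.86% in lung. Eln had near-equal cover in heart and lung, and Fbn1 had more in heart. Of 25 pericyte and smooth muscle genes, 2 (8%) had one (Heyl and Pdgfrb), beside 9.19% of all genes. By size, these were 1 of 7 genes of 10 to 30 kb and 1 of 7 of 30 to 100 kb. None of the 7 under 10 kb or the 4 over 100 kb did.

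Among 30 transcription factors and related genes of heart and lung development, 5 (16.7%) had a region, beside 9.19% of all genes. Of these, 4 were among the 5 genes of the list over 100 kb, a size class in which 27.6% of all genes held one, and none of the 10 under 10 kb or of the 7 of 10 to 30 kb had one. Meis1, a homeobox factor, held 9, with 33.9% of the span covered in heart, 25.3% in lung, 3.2% in kidney and 3.91% in liver. Tbx5, a T-box factor of heart, forelimb and lung bud, held 2 and was covered over 21.2% in heart and 1.48% in lung, with none in kidney or liver. Zfpm2 and Mef2c held 1 each, with 7.9 and 7.52 tags in lung.

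Of 34 cardiomyocyte genes, 5 (14.7%) had one, beside 9.19% of all genes. The 5 were 2 of 8 genes of 30 to 100 kb and 3 of 7 over 100 kb. In those classes 15.4% and 27.6% of all genes held one. None of the 13 under 10 kb or the 6 of 10 to 30 kb did. The 5 genes held 20 regions together, led by the calcium channel gene Cacna1c with 9 and the potassium channel gene Kcnq1 with 7. Cacna1c was covered over 68.9% in heart, 6.19% in lung, 0.184% in kidney and 0.263% in liver. Lung had 1 cardiomyocyte gene covered over at least 50%, the calcium pump gene Atp2a2 (64.4%). Of 25 lung epithelial genes, 2 (8%) had one, beside 9.19% of all genes, Rtkn2 with 3 and Lpcat1 with 1. Both were among the 6 of 30 to 100 kb, a class in which 15.4% of all genes held one. None of the 13 lung epithelial genes under 10 kb or the 6 of 10 to 30 kb did. Rtkn2 was covered over 4.95% in heart and 55.0% in lung. Heart had 1 lung epithelial gene covered over at least 50%, Ager, which was also covered over 97.9% in kidney. Myeloid genes held one in 2 of 27 cases (7.41%, Fcgr3 and Spi1) and lymphocyte genes in 2 of 26 (7.69%, Cd2 and Lck). Adipocyte genes did in 1 of 15 (6.67%, Pparg with 3) and Schwann cell and nerve genes in 1 of 12 (8.33%, S100b). Kidney tubule genes did in 1 of 20 (5.0%, Cubn). These shares stand beside 9.19% of all genes and are not above it. None was found in 8 erythroid, 7 mesothelial, 20 hepatocyte and 15 housekeeping genes. All 20 hepatocyte genes were covered over at least 50% in liver, and all 15 housekeeping genes had kidney and liver regions. Median spans were 13.0 kb for the hepatocyte genes and 5.4 kb for the housekeeping genes, beside 17.3 kb for all genes. Why none of these genes held a region was not tested. Of the erythroid genes, 7 had no heart and no lung region, and 6 mesothelial genes lacked a call in heart or in lung. The part of blood cells and fat in the shared regions was not tested beyond these counts.

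Outside the lists, the genes with no kidney or liver region in the span and the highest summed lower count were Gask1b, with 4 regions, Fam189a2 with 8, B4galt4 with 3, Jcad with 6, Hmcn1 with 6 and Ppp1r14c with 9. Gask1b, a Golgi-associated kinase gene, was covered over 42.0% in heart and 34.2% in lung. Fam189a2 was covered over 51.6% in heart and 38.5% in lung. Jcad, whose product sits at endothelial cell junctions, was covered over 17.9% in heart and 24.7% in lung. Ppp1r14c, an inhibitor of protein phosphatase 1, was covered over 41.4% in heart and 18.9% in lung. Osmr, the oncostatin M receptor, held 4 and Cd44, the hyaluronan receptor, 4, with 30.1% and 9.37% covered in heart and 18.9% and 37.7% in lung. Emp2 and Hepacam, with 4 regions each, were covered mostly in lung, over 67.4% and 83.3%, against 14.9% and 21.5% in heart. These genes were chosen after their values were seen.

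Regions stood close together in places. Counted in bins of 200 kb, the fullest held 21 in Ptprm, followed by 16 at Kif13a, 16 at Man1c1 and 15 at Samd4. Lamc1, a laminin chain of basement membranes, had 14 in its bin, with 10 in the gene. A bin on chromosome 2 holding Thbd and Cd93 had 12, with 663.5 tags in heart and 646.45 in lung, and all 12 lay outside protein-coding genes. These 12 had 10.6 to 194.3 tags in heart and 7.9 to 142.5 in lung, and the one with 142.5 in lung had 10.6 in heart. A bin on chromosome 10 holding Kitl had 13, with 503.0 tags in heart and 510.89 in lung. The Ptprm and Kif13a bins had more tags in heart (1347.22 and 883.93) than in lung (848.89 and 552.47), while those of Kitl and of Thbd and Cd93 were nearly balanced.

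The 167 promoter windows touched by the regions, of 151 genes, had a median G and C content of 58.0% and a median of 12 CpG. All 21044 windows of the table had 56.7% and 13, and those in regions held by all 4 organs 61.3% and 22. Under 5 CpG were found in 25.1% of the 167, beside 27.7% of all windows. The motifs were searched on both strands by exact match. The ETS core CCGGAAG was in 12 of the 167 (7.19%), beside 11.7% of all windows and 23.6% in regions held by all 4 organs. Its share was 17.6% of windows in kidney and liver only regions, 12.3% in lung and kidney only and 5.21% in heart and kidney only. The low share is thus not particular to heart and lung. The KLF core CCACCC was in 37.7%, beside 33.8% of all, and the TEAD motif GGAATG in 16.2%, beside 13.5%. The GATA core AGATAA was in 10.8%, beside 9.68%, the AP-1 motif TGANTCA in 7.78%, beside 7.04%, and the FOX core TGTTTAC in 3.59%, beside 3.03%. The SOX core ACAAAG was in 16.8%, beside 16.9%, and the E-box CACGTG in 5.39%, beside 7.91%. A match is a description of letters in the window, not of a bound site. In the windows printed above, Gask1b has AP-1 letters at -234 and 24 relative to the start, Myct1 GATA letters at -61 and FOX letters at 7, Clec14a TEAD letters at -130 and Timp2 KLF letters at -228.

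Of 1005 microRNA hairpins in the RefSeq table, 11 lay in the regions. They include Mir199b, on chromosome 2 in a region with 52.1 tags in heart and 30.5 in lung, and Mir32, on chromosome 4 in a region with 10.1 in heart and 9.4 in lung. MicroRNAs of the miR-199 family are known from mesenchymal cells, and miR-32 shares its seed with the miR-92 family. The mature sequences are from RefSeq on GRCm38.p6, with the seed, bases 2 to 8, in capitals.
mmu-miR-199b-3p, chr2:32318524-32318545, plus strand: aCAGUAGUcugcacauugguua
mmu-miR-32-5p, chr4:56895272-56895293, minus strand: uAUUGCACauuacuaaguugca
mmu-miR-32-3p, chr4:56895232-56895252, minus strand: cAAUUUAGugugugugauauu
The region at Mir199b had more tags in heart, and that at Mir32 stood near the lowest counts of both organs.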

How the data were processed

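Pol II regions of 4 organs, 1 list each, were analysed. Per the submitters' processing notes, Bowtie2 2.2.8 and HOMER 4.8 were used on mm10. Per the file headers, regions were called by the authors with windows of 500 bp at a Poisson p threshold of 0.001, and the recorded command names no control library, so local bias was not subtracted by one. Each region has a deposited signal, its tag count after scaling by the authors to 10000000 tags, a score from the caller, read within a list only, and a ratio named clonal fold change. Lengths were also deposited. The treatment of tags with several matches is not stated, so close paralogs are uncertain.

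Regions overlapping by at least 1 bp were joined (Python 3.11.15, pandas 2.3.3, numpy 2.4.6). A region was given to every protein-coding gene whose span, introns included, it overlapped. Spans of 21627 genes, promoter windows of 17273 of them and microRNAs came from RefSeq tables of GRCm38.p6, the assembly behind mm10, and no promoter window on chromosome 18 was used. Covered percent is the share of a span inside called regions. The tag thresholds stated in the headers equal 9.11 tags per 10000000 in heart, 8.27 in lung, 7.23 in kidney and 6.98 in liver, and genes without a call may still carry Pol II. Intervals are exact (Clopper-Pearson) at 95% and cover counting error only. Linking and overlap code was tested on simulated regions. The 19 gene lists (411 genes, 12 in more than 1 list) and the rule for named items were written with earlier results of these data known, as was the choice of regions. The rule names the 15 regions with the highest lower tag count, the 5 with the highest lower score percentile, the 15 genes with the most regions and up to 6 genes per list. Other genes named were chosen after their values were seen. A few items picked by this rule are not reported here.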

Additional observations from a re-analysis of the deposited data

How the results depend on the processing

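With at least 1 region per gene, the endothelial share stayed between 40% and 57.5% under the 10 alternatives planned, where the share of all genes ran between 6.33% and 11.3%. With only the upper 50% of each list by score, 3289 regions remained (73.0% in genes), with 3 capillary, 7 vascular signalling, 6 fibroblast and matrix, 3 developmental factor and 2 cardiomyocyte genes. With lists of equal size, 3419 regions were found by score, with 3 capillary, 7 vascular signalling, 3 developmental factor and 3 cardiomyocyte genes, and 3582 by tag count, with 3 developmental factor genes. Without a length limit, 8 cardiomyocyte genes held a region, and with at least 10 tags per region 3 developmental factor genes did. Leaving out regions with a kidney or liver region within 1000 bp gave 65.6% in genes and 3 capillary genes, spans extended by 5000 bp gave 74.6% and 8, and counting centres only gave 65.4% in genes. Added after the data were seen, at least 20 tags in both organs left 1139 regions in 516 genes (2.39%), with 9 endothelial, 2 capillary, 4 vascular signalling, 3 fibroblast and matrix, 2 developmental factor, 4 TGF-beta and 1 cardiomyocyte gene. Also added, at least 2 regions in the span left 774 genes, with 13 endothelial, 2 capillary, 7 vascular signalling, 4 fibroblast and matrix, 3 developmental factor, 4 TGF-beta and 3 cardiomyocyte genes. The cause of these shifts was not tested, beyond fewer or more regions being counted. No paired analysis was possible because each organ has 1 list. With 1 list per organ, no difference can be set against replicate error, and most regions hold few tags, so a missing kidney or liver call is a matter of threshold as well as occupancy.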
